A study of Drosophila melanogaster with 24 samples.

Results

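The proteasome is the protease that degrades proteins tagged with ubiquitin, and its subunits and the bound deubiquitinase Usp14 are followed here across lines of Drosophila melanogaster selected for stress resistance or longevity. The members were all probe sets annotated to a single gene whose current symbol starts with Prosalpha, Prosbeta, Rpn or Rpt followed by a digit, plus Usp14. They comprised 43 probe sets for 40 genes, of 10844 genes named by a single-gene probe set on the array. The rule used gene names and no measured value, but the members were chosen with earlier results of these data known. Usp14, which does not match the symbol pattern, was added by name.

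Expression was measured with Affymetrix arrays in adult whole females of 8 groups of 3 lines (24 arrays, 1 per line). The groups were non-selected control lines, lines selected for resistance to heat, cold, knock-down (knock_down in the labels), starvation or desiccation, lines selected for longevity, and constant 30 lines, described as held at 30 degrees. The sources used here do not say for how long, or whether the sampled females were themselves kept at 30 degrees, so selection and rearing temperature cannot be told apart in these lines. The labels mention no other treatment or allele, and they do not state the age and strain of the flies, the number of generations or the kind of knock-down. RNA came from vials of 10 females, so a value stands for a pool of whole bodies, in which fewer cells of a type and less RNA per cell cannot be told apart. The labels call the lines biological replicates, and the spread between such lines is what each p-value is based on. Values are the deposited GCRMA values, a background-corrected and normalized probe-set signal on the log2 scale, on which a difference of 1 is a doubling. Array medians lay between 5.46 and 5.57. The yolk protein genes Yp1, Yp2 and Yp3, made by females, averaged 13.78 to 14.40 on the 24 arrays, while 12 of the 13 testis marker genes on the array and 6 of the 7 male accessory gland genes stayed under the limit for testing. The exceptions were ProtB (4.08 to 4.73) and Acp26Aa (3.90 to 4.42).

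A proteasome is built from a barrel-shaped 20S core, in which outer rings of alpha subunits guard the entrance and inner rings of beta subunits carry the proteolytic sites, and from a 19S cap. The base of the cap holds the Rpt ATPases, which unfold the substrate, with the large scaffold subunits Rpn1 and Rpn2 and the ubiquitin receptor Rpn13, and the lid holds the deubiquitinase Rpn11 among other Rpn subunits. The proteasome is needed in all tissues, the ovary included, and in flies several subunits have a second gene copy that is active in the testis. Roles given below for single subunits are those known from yeast and mammals. Subunits are needed in fixed proportions, and their genes are known to be regulated together through the cap 'n' collar transcription factor cnc, the fly relative of the mammalian Nrf factors.

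A probe set entered the tests if 3 or more of the 24 arrays, in any group, gave it a log2 value above 4, which was true of 9023 probe sets and of 29 of the 43 members. Of these 29, 26 were for the ordinary subunits (6 of the alpha ring, 6 of the beta ring, 7 of the base and 7 of the lid), 1 was for Usp14 and 2 were for the paralogs Rpn13R and Rpt3R. The 26 subunit probe sets and that of Usp14 were above 4 on all 24 arrays, so no group decided whether they were tested. The 26 subunit genes are spread over the genome, with 4 on chromosome arm 2L, 7 on 2R, 4 on 3L, 8 on 3R and 3 on X. Prosalpha1, whose probe set also names Prosalpha1R, and Prosbeta1, Rpn9, Rpn10, Rpt1 and Rpt6 were not analysed here.

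Transcripts of the 26 ordinary subunits differed little between the selected and the control lines. In limma's fit over all arrays 0 of them were called, at an adjusted p under 0.05, in any of the 7 comparisons with control, and their changes ran from -0.40 to 0.14 on the log2 scale. The smallest adjusted p of the 182 subunit changes was 0.347, and 6 of the 182 had an unadjusted p under 0.05. Among all 29 tested members Usp14 alone was called, lower in knock-down selected lines. Of all 9023 tested probe sets, 2.84% were called in heat selected lines (1.99% higher and 0.842% lower), 0.155% in knock-down selected and 0.0776% in desiccation selected lines, and 0% in each of the other 4 regimes.

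The intervals of these changes show how large a difference the 3 lines per group leave room for. Of the 182 95% intervals, 174 lay wholly within 0.3 of 0 on the log2 scale, which is a 1.23-fold difference. Of the other 8 intervals 6 belonged to Rpn2, 1 to Rpt4 in constant 30 (-0.35 to -0.033) and 1 to Rpn7 in heat selected lines (-0.030 to 0.31). The lowest bound of any subunit was that of Rpn2 in cold selected lines, -0.64.

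The subunits had a median below control in all 7 regimes, and all tested probe sets together had one in 6 of them. The median change of the 26 subunits was -0.016 in heat selected, -0.050 in constant 30, -0.043 in cold selected and -0.076 in longevity selected lines. It was -0.049 in knock-down selected, -0.028 in starvation selected and -0.032 in desiccation selected lines. The medians over all tested probe sets, in the same order, were 0.013, -0.024, -0.018, -0.025, -0.020, -0.029 and -0.019. All 7 comparisons share the same 3 control lines, so these medians are not independent of each other. In longevity and knock-down selected lines 24 of the 26 subunits lay below control in each case, against 59.0% and 56.6% of all tested probe sets. The count was 23 in starvation selected (all probe sets 60.2%) and 15 in heat selected lines (46.5%). It was 20 in constant 30 (58.3%), 20 in cold selected (56.4%) and 19 in desiccation selected lines (56.6%). The subunits were correlated across lines, as given below, so these counts are not of independent observations.

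The mean over the 26 subunits lay between 10.31 and 10.46 on every array. The control lines stood at 10.45, 10.45 and 10.45, and heat selected lines at 10.42, 10.44 and 10.45. Constant 30 lines stood at 10.46, 10.43 and 10.31, cold selected at 10.41, 10.41 and 10.37 and longevity selected at 10.36, 10.43 and 10.35. Constant 30 replicate 3 had the lowest mean of all 24 arrays, and its median over all tested probe sets, 7.26, was also the lowest. Knock-down selected lines stood at 10.40, 10.43 and 10.37, starvation selected at 10.46, 10.36 and 10.37 and desiccation selected at 10.45, 10.40 and 10.42. The range of the 3 lines was wider than the difference of their mean from control in every regime except cold selected. Several of the median changes of the 26 subunits depended on single lines. Without constant 30 replicate 3 the constant 30 median was -0.0022 in place of -0.050, and without cold selected replicate 3 the cold selected one was -0.028. The starvation selected median was -0.068 without starvation selected replicate 1 and -0.013 without replicate 2, and the knock-down selected one was -0.075 without knock-down selected replicate 2. The heat selected median was -0.0024 without control replicate 1, and -0.0043, -0.025 and -0.0069 without heat selected replicates 1, 2 and 3.

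**Figure D1:**
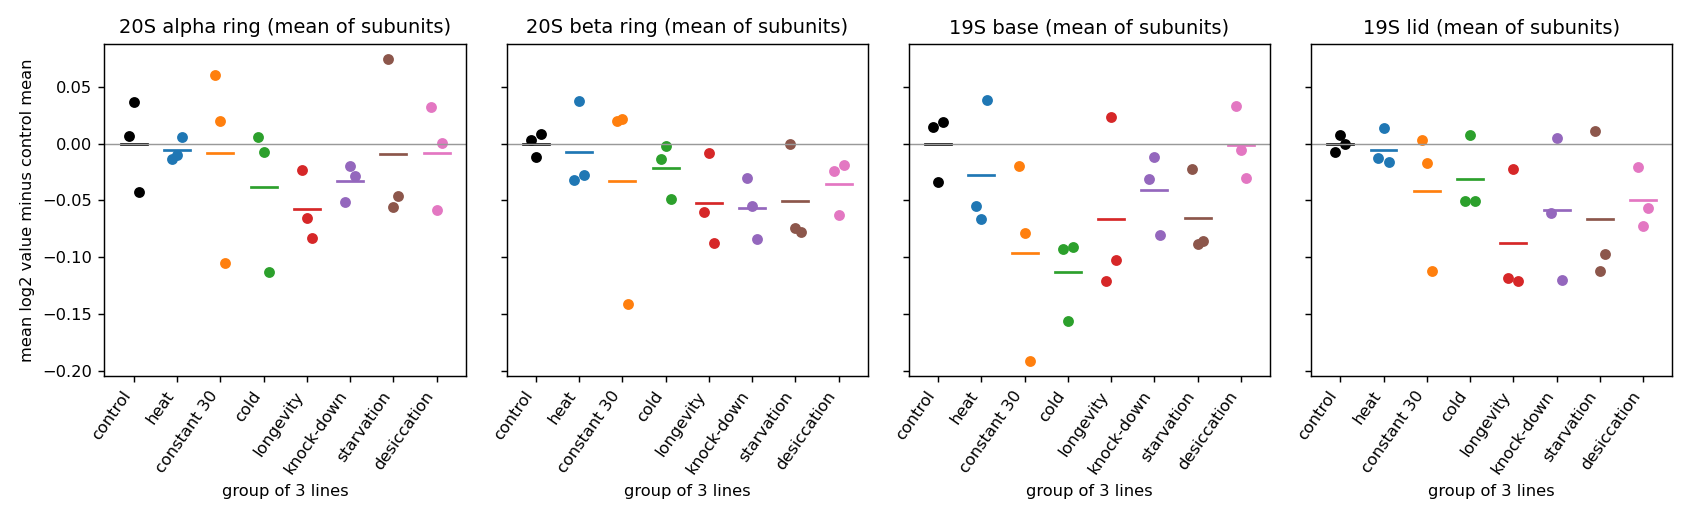
Mean log2 value of the tested subunits of the alpha ring (6), beta ring (6), base (7) and lid (7) on each array, minus the mean of the 3 control arrays; points are lines and bars are group means. Constant 30 replicate 3, with means of 10.90 for the beta ring and 9.69 for the base, is the lowest point of both. In every panel most points of the 7 regimes lie below 0.

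Usp14, the deubiquitinase that binds the cap of the proteasome and trims ubiquitin chains from substrates before they are degraded, was the only member called. Control lines read 10.13, 10.17 and 10.16, and knock-down selected lines read 9.86, 9.62 and 9.92. The change was -0.35 ± 0.071 (SE, n = 3 lines per group), with a 95% interval of -0.50 to -0.21, an adjusted p of 0.0484 in limma and a fold of 0.782. Knock-down selected replicate 2 was lowest, and every knock-down selected line lay below every control line. Of all tested probe sets 0.0111% were called lower in this comparison, and Usp14 was that 1 probe set. Usp14 was added to the members by name with earlier results of these data known. Its call is thus no independent result about the members.

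The means of the other regimes lay between those of knock-down selected and control lines. Heat selected lines read 9.98, 9.89 and 9.91, constant 30 lines 10.10, 10.07 and 10.02 and cold selected lines 10.05, 10.02 and 9.88. Longevity selected lines read 10.06, 9.97 and 9.91, starvation selected 10.12, 10.04 and 9.99 and desiccation selected 10.03, 9.98 and 10.10. All 21 lines of the 7 regimes thus lay below all 3 control lines, the closest being starvation selected replicate 1, at 10.12, beside control replicate 1, at 10.13. No other tested member had all 21 lines on one side of the control lines. Of all tested probe sets 0.0997% lay below control in that way and 0.0443% above. Because Usp14 was added by name with earlier results known, these shares do not measure how unusual its pattern is. The control lines of Usp14 lay close together, with an SD of 0.023, and 4.38% of all tested probe sets had a smaller control SD.

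Outside knock-down selected lines the Usp14 differences did not pass the test. The change was -0.23 ± 0.071 in heat selected (adjusted p = 0.0799 in limma), -0.17 in longevity selected (adjusted p = 0.573) and -0.17 in cold selected lines (adjusted p = 0.588). It was -0.12 in desiccation selected, -0.10 in starvation selected and -0.092 in constant 30 lines. The mean of the 7 regimes lay 0.18 below control (adjusted p = 0.190), and limma's F test over the 8 groups gave an adjusted p of 0.173 (0.0554% of all tested probe sets were called by it). Heat selected lines, compared directly with knock-down selected lines, were 0.13 higher (95% interval -0.021 to 0.28, adjusted p = 0.406), so the knock-down selected level was not shown to differ from the heat selected level.

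The Usp14 call was close to the threshold. Leaving out control replicate 1 or 2, or knock-down selected replicate 1, 2 or 3, gave adjusted p-values of 0.204, 0.216, 0.0596, 0.276 and 0.0794, and without knock-down selected replicate 2 the change was -0.26. Integrity of the RNA was read from control probe sets at both ends of a transcript, as signal at the 3' end minus that at the 5' end. A smaller difference stands for more intact RNA. The difference was 1.76, 1.50 and 1.70 for knock-down selected and 1.74, 1.69 and 1.82 for control. It was smallest in knock-down selected replicate 2, the line with the lowest Usp14 value. With that difference as a covariate the change was -0.33 (adjusted p = 0.0703). Muscle genes (11 of 15 listed were tested) averaged 8.25, 9.32 and 8.99 in knock-down selected and 8.28, 8.51 and 8.99 in control lines. Germ line genes (13 of 14) averaged 9.41, 9.32 and 9.46 and 9.44, 9.46 and 9.40, eggshell genes (12 of 14) 11.74, 11.02 and 11.15 and 11.78, 11.57 and 11.47, and the yolk proteins (3 of 3) 14.26, 14.04 and 14.04 and 14.27, 14.31 and 14.18. The part of these cell types in the Usp14 difference was not tested.

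Usp14 has a second probe set, which read under 4 on all 24 arrays and was not tested. It lay at 3.53, 3.38 and 3.47 in control and 3.39, 3.32 and 3.29 in knock-down selected lines, so the Usp14 result rests on 1 probe set.

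**Figure D2:**
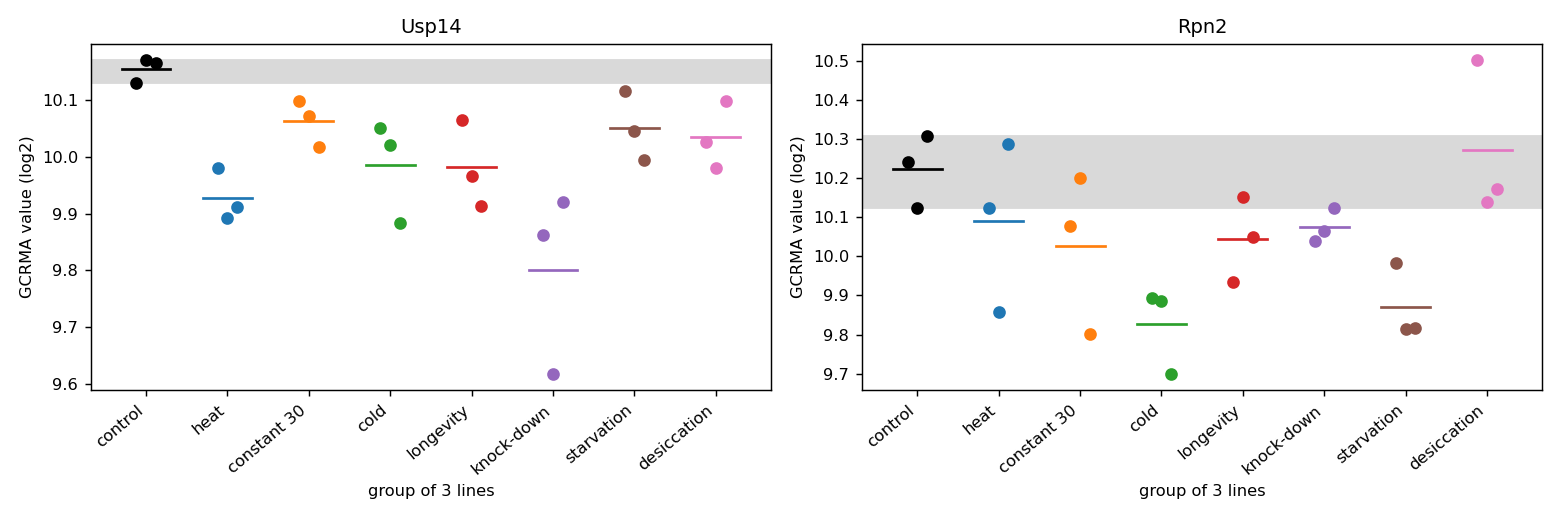
Log2 GCRMA values of Usp14 and Rpn2 in each of the 24 lines by group; bars are group means of 3 lines and the grey band spans the 3 control lines. All 21 lines of the 7 regimes lie under the band for Usp14, from 9.62 to 10.12, while Rpn2 lies wholly under the band in cold selected and starvation selected lines and reaches above it in 1 desiccation selected line, at 10.50.

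The alpha ring subunits form the gate of the core and none was called in any comparison. Their median change ranged from -0.060 to -0.0034 over the 7 regimes. The genes named here by rule are the 3 with the smallest p in each comparison with control and in the F test, and those with the highest and lowest signal of each subcomplex. Signals of different probe sets are given without ranking the genes, because probes differ in how well they bind. Prosalpha5 was at 11.26, 11.33 and 11.30 in the control lines, 11.23, 11.13 and 11.23 in heat selected, 11.34, 11.29 and 11.29 in constant 30 and 11.31, 11.32 and 11.16 in cold selected lines. Prosalpha5 in the longevity selected lines was at 11.41, 11.21 and 11.24, in knock-down selected at 11.24, 11.15 and 11.27, in starvation selected at 11.35, 11.21 and 11.25 and in desiccation selected at 11.31, 11.17 and 11.33. Heat selected lines lay below all control lines, with a change of -0.097 ± 0.066 (SE, adjusted p = 0.429 in limma), and the other 6 regimes overlapped control.

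Prosalpha4 was at 9.80, 9.91 and 9.69 in the control lines, 9.72, 9.84 and 9.86 in heat selected, 9.77, 9.74 and 9.57 in constant 30 and 9.78, 9.77 and 9.60 in cold selected lines. Prosalpha4 in the longevity selected lines was at 9.68, 9.74 and 9.67, in knock-down selected at 9.76, 9.75 and 9.68, in starvation selected at 9.85, 9.68 and 9.72 and in desiccation selected at 9.79, 9.66 and 9.77. Prosalpha4 overlapped control in all 7 regimes, with changes from -0.11 in constant 30 to 0.0070 in heat selected lines. Prosalpha2 ranged over all arrays from 10.58 to 10.90, Prosalpha3 from 10.51 to 10.75 and Prosalpha6 from 10.53 to 10.83. The group means of these subunits spanned 0.17, 0.11 and 0.17. Prosalpha7 ranged from 9.82 to 10.18, and its heat selected lines (9.93, 9.91 and 9.94) lay below control (9.98, 10.09 and 9.98), at -0.090 ± 0.073 (SE, adjusted p = 0.521). A second probe set of Prosalpha7 read under 4 on all arrays and was not tested.

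The beta ring subunits surround the proteolytic chamber, and none was called either. Their median change ran from -0.055 to -0.0013 over the 7 regimes. Prosbeta5, which carries the chymotrypsin-like site, ranged from 11.00 to 11.24 over all arrays, and Prosbeta2, which carries the trypsin-like site, from 11.06 to 11.27. The group means of Prosbeta2 spanned 0.059, the narrowest span of the 26 subunits, and those of Prosbeta5 spanned 0.098. Prosbeta7, which has no proteolytic site, ranged from 10.90 to 11.11, with group means spanning 0.079.

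Prosbeta3 was at 10.83, 10.80 and 10.86 in the control lines, 10.75, 10.90 and 10.75 in heat selected, 10.87, 10.90 and 10.70 in constant 30 and 10.81, 10.79 and 10.78 in cold selected lines. Prosbeta3 in the longevity selected lines was at 10.71, 10.76 and 10.64, in knock-down selected at 10.76, 10.79 and 10.66, in starvation selected at 10.79, 10.77 and 10.75 and in desiccation selected at 10.79, 10.75 and 10.77. Prosbeta3, a structural subunit of this ring, was lower than every control line in all longevity selected lines, with a change of -0.13 ± 0.060 (SE, adjusted p = 0.626 in limma). Its knock-down selected, starvation selected and desiccation selected lines also lay under all control lines, at -0.096, -0.059 and -0.060. These comparisons share the control lines, whose Prosbeta3 values had an SD of 0.031.

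Prosbeta4 was at 11.56, 11.62 and 11.68 in the control lines, 11.66, 11.66 and 11.64 in heat selected, 11.66, 11.62 and 11.44 in constant 30 and 11.62, 11.61 and 11.53 in cold selected lines. Prosbeta4 in the longevity selected lines was at 11.54, 11.64 and 11.57, in knock-down selected at 11.56, 11.57 and 11.50, in starvation selected at 11.54, 11.48 and 11.48 and in desiccation selected at 11.64, 11.49 and 11.54. Starvation selected lines lay under all control lines of Prosbeta4, another structural subunit, with a change of -0.12 ± 0.060 (SE, adjusted p = 0.570 in limma), and the other regimes overlapped control. Prosbeta6 was at 10.46, 10.40 and 10.46 in the control lines, 10.40, 10.60 and 10.40 in heat selected, 10.40, 10.46 and 10.23 in constant 30 and 10.40, 10.51 and 10.48 in cold selected lines. Prosbeta6 in the longevity selected lines was at 10.26, 10.43 and 10.39, in knock-down selected at 10.40, 10.42 and 10.32, in starvation selected at 10.46, 10.41 and 10.42 and in desiccation selected at 10.43, 10.38 and 10.44. Prosbeta6 overlapped control in all 7 regimes, with changes from -0.085 to 0.025.

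In the base of the cap Rpn2 varied most between groups of all 26 subunits, with group means that spanned 0.45. Rpn2 is the scaffold subunit on which the ubiquitin receptor Rpn13 sits. Rpn2 was at 10.24, 10.12 and 10.31 in the control lines, 10.12, 9.86 and 10.29 in heat selected, 10.08, 10.20 and 9.80 in constant 30 and 9.89, 9.89 and 9.70 in cold selected lines. Rpn2 in the longevity selected lines was at 9.94, 10.15 and 10.05, in knock-down selected at 10.04, 10.06 and 10.12, in starvation selected at 9.98, 9.81 and 9.82 and in desiccation selected at 10.50, 10.14 and 10.17. Every cold selected and every starvation selected line lay below every control line, whereas desiccation selected replicate 1 was the highest of the 24 lines.

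The Rpn2 difference was -0.40 ± 0.12 in cold selected lines (SE, 95% interval -0.64 to -0.16, unadjusted p = 0.00266 and adjusted p = 0.486 in limma). In starvation selected lines it was -0.35 ± 0.12 (95% interval -0.59 to -0.11, unadjusted p = 0.00637 and adjusted p = 0.374). The F test over the 8 groups gave an adjusted p of 0.219. Starvation selected lines also lay wholly below desiccation selected lines, with a difference of -0.40 ± 0.12 (unadjusted p = 0.00251, adjusted p = 1.000). None of these differences passed the test over all probe sets. The residual SD of Rpn2 between lines of a group, 0.15, was larger than that of any other subunit and larger than that of 68.6% of all tested probe sets. Rpn13, its neighbour in the complex, had group means from 9.52 ± 0.067 (SD, n = 3) in longevity selected to 9.67 ± 0.18 in heat selected lines and overlapped control in every regime.

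The Rpt ATPases form the motor ring of the base. Rpt2 was at 10.85, 10.85 and 10.82 in the control lines, 10.71, 10.79 and 10.83 in heat selected, 10.89, 10.71 and 10.53 in constant 30 and 10.70, 10.79 and 10.73 in cold selected lines. Rpt2 in the longevity selected lines was at 10.70, 10.80 and 10.68, in knock-down selected at 10.80, 10.79 and 10.62, in starvation selected at 10.78, 10.74 and 10.68 and in desiccation selected at 10.84, 10.81 and 10.76. Rpt2 lay below all control lines in cold, longevity, knock-down and starvation selected lines, at -0.10, -0.11, -0.11 and -0.11. Its control lines had an SD of 0.020, and the largest change, in constant 30 lines, was -0.13 ± 0.074 (SE, adjusted p = 0.726 in limma) with overlapping lines.

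Rpt4 was at 9.74, 9.85 and 9.82 in the control lines, 9.70, 9.68 and 9.79 in heat selected, 9.77, 9.53 and 9.52 in constant 30 and 9.73, 9.60 and 9.69 in cold selected lines. Rpt4 in the longevity selected lines was at 9.56, 9.86 and 9.69, in knock-down selected at 9.81, 9.79 and 9.66, in starvation selected at 9.77, 9.80 and 9.83 and in desiccation selected at 9.82, 9.70 and 9.70. Constant 30 replicates 2 and 3 and longevity selected replicate 1 had the lowest Rpt4 values, and the change was -0.19 ± 0.077 in constant 30 (SE, unadjusted p = 0.0204, adjusted p = 0.609 in limma) and -0.13 in cold selected lines. The constant 30 lines overlapped the control lines, and the cold selected lines did not. Rpt3 was at 8.62, 8.66 and 8.72 in the control lines, 8.69, 8.64 and 8.71 in heat selected, 8.82, 8.73 and 8.63 in constant 30 and 8.67, 8.58 and 8.52 in cold selected lines. Rpt3 in the longevity selected lines was at 8.75, 8.77 and 8.62, in knock-down selected at 8.75, 8.71 and 8.74, in starvation selected at 8.97, 8.56 and 8.63 and in desiccation selected at 8.67, 8.72 and 8.74. Starvation selected replicate 1 was highest for Rpt3, and all 7 regimes overlapped control. Rpt5 ranged from 9.78 to 10.21 and Rpn1, the scaffold that holds ubiquitin shuttle factors, from 9.79 to 10.08, both overlapping control in every regime.

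The lid removes ubiquitin from substrates, and its 7 tested subunits had a median change of -0.10 to -0.023 over the regimes. The group means of all 7 lid subunits lay below control in longevity, knock-down and starvation selected lines, with 0 called. Of all tested probe sets 59.0%, 56.6% and 60.2% did so. In longevity selected lines all 6 alpha and all 6 beta ring subunits and 5 of 7 base subunits lay below as well. In knock-down selected lines it was 5 of 6, 6 of 6 and 6 of 7, and in starvation selected lines 5 of 6, 5 of 6 and 6 of 7. Rpn11 was at 10.58, 10.44 and 10.46 in the control lines, 10.44, 10.55 and 10.43 in heat selected, 10.49, 10.45 and 10.39 in constant 30 and 10.45, 10.44 and 10.35 in cold selected lines. Rpn11 in the longevity selected lines was at 10.40, 10.41 and 10.33, in knock-down selected at 10.43, 10.43 and 10.37, in starvation selected at 10.41, 10.34 and 10.37 and in desiccation selected at 10.50, 10.48 and 10.52. Rpn11, the metalloprotease that cuts ubiquitin from the substrate, lay below all control lines in longevity, knock-down and starvation selected lines. The Rpn11 changes were -0.12 ± 0.054 (SE, adjusted p = 0.627 in limma), -0.082 and -0.12 ± 0.054 (adjusted p = 0.529). Rpn8, the subunit paired with Rpn11, differed less.

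Rpn8 was at 9.49, 9.47 and 9.60 in the control lines, 9.48, 9.46 and 9.47 in heat selected, 9.55, 9.47 and 9.43 in constant 30 and 9.52, 9.45 and 9.41 in cold selected lines. Rpn8 in the longevity selected lines was at 9.42, 9.53 and 9.49, in knock-down selected at 9.49, 9.55 and 9.39, in starvation selected at 9.56, 9.52 and 9.40 and in desiccation selected at 9.51, 9.45 and 9.59. The Rpn8 groups all overlapped control, and their means spanned 0.061. Rpn5 was at 11.37, 11.26 and 11.35 in the control lines, 11.29, 11.20 and 11.23 in heat selected, 11.28, 11.27 and 11.24 in constant 30 and 11.21, 11.32 and 11.32 in cold selected lines. Rpn5 in the longevity selected lines was at 11.21, 11.32 and 11.27, in knock-down selected at 11.22, 11.28 and 11.17, in starvation selected at 11.34, 11.23 and 11.30 and in desiccation selected at 11.33, 11.18 and 11.17. Rpn5, a scaffold subunit of the lid, was at -0.10 in knock-down selected and -0.099 in desiccation selected lines (adjusted p = 0.579 and 0.735 in limma), with lines that overlapped control.

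Rpn6 was at 10.79, 10.76 and 10.77 in the control lines, 10.78, 10.59 and 10.74 in heat selected, 10.75, 10.82 and 10.77 in constant 30 and 10.69, 10.80 and 10.42 in cold selected lines. Rpn6 in the longevity selected lines was at 10.72, 10.59 and 10.69, in knock-down selected at 10.71, 10.69 and 10.74, in starvation selected at 10.84, 10.66 and 10.75 and in desiccation selected at 10.82, 10.75 and 10.70. Rpn6, which links the lid to the core, was lowest in cold selected replicate 3, and the cold selected change of -0.13 ± 0.077 (SE, adjusted p = 0.693 in limma) rested on lines that overlapped control. Longevity and knock-down selected lines lay under all control lines of Rpn6, at -0.11 and -0.061. The control SD of Rpn6 was 0.014.

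Rpn7 was at 10.20, 10.41 and 10.29 in the control lines, 10.38, 10.48 and 10.45 in heat selected, 10.36, 10.31 and 10.16 in constant 30 and 10.28, 10.46 and 10.44 in cold selected lines. Rpn7 in the longevity selected lines was at 10.13, 10.37 and 10.17, in knock-down selected at 10.26, 10.43 and 10.17, in starvation selected at 10.32, 10.22 and 10.26 and in desiccation selected at 10.22, 10.23 and 10.19. Heat selected lines had the highest mean of Rpn7, a further scaffold subunit, at 0.14 ± 0.081 from control (SE, adjusted p = 0.347 in limma), and overlapped the control lines. Rpn3 ranged over all arrays from 10.70 to 11.09 and Rpn12 from 9.54 to 9.83, with group means that spanned 0.17 and 0.11, and both overlapped control in every regime.

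**Figure D3:**
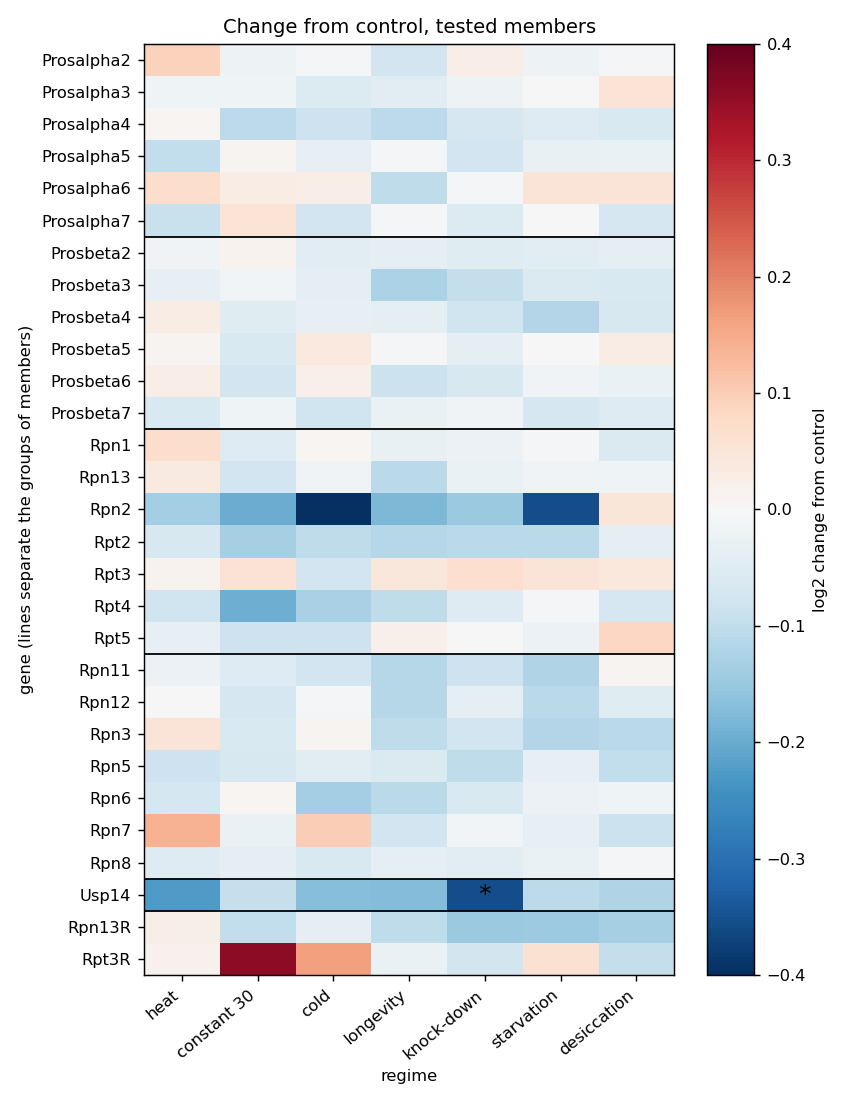
Log2 change from control of the 29 tested members in the 7 regimes, with genes ordered by ring, base, lid, Usp14 and paralogs; blue is lower and red higher than control, and the star marks the only call, Usp14 in knock-down selected lines. Rpn2 in cold selected lines, at -0.40, and Usp14 in knock-down selected lines, at -0.35, are among the darkest blue cells.

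Every member that lay wholly apart from control was lower. Among the 29 tested members, 3 in heat selected lines (Usp14, Prosalpha5 and Prosalpha7) lay below every control line, where 11.4% of all tested probe sets did so. The count was 2 in constant 30 (Usp14 and Rpn13R; 9.36% of all), 4 in cold selected (Usp14, Rpn2, Rpt2 and Rpt4; 7.29%) and 5 in longevity selected lines (Usp14, Prosbeta3, Rpn6, Rpn11 and Rpt2; 9.54%). In knock-down selected lines it was 7 (Usp14, Prosbeta2, Prosbeta3, Rpn6, Rpn11, Rpn13R and Rpt2; 9.48% of all). Starvation selected lines also had 7 (Usp14, Prosbeta3, Prosbeta4, Rpn2, Rpn11, Rpn13R and Rpt2; 11.8%), and desiccation selected lines had 4 (Usp14, Prosbeta2, Prosbeta3 and Rpn13R; 12.9%). In no regime did a member lie wholly above control, while 12% of all tested probe sets did so in heat selected, 3.77% in constant 30, 3.78% in cold selected and 3.23% in longevity selected lines. The share was 5.52% in knock-down selected, 3.56% in starvation selected and 4.1% in desiccation selected lines. These counts share the control lines, and a member with high control values can be counted in several regimes. Rpn13R was tested only through control, heat selected and cold selected arrays above 4, so its place in these counts gives no support to a difference.

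At an unadjusted p under 0.05, limma gave 1 of the 29 members in heat selected (20.5% of all tested probe sets), 2 in constant 30 (6.98%), 2 in cold selected (7.9%) and 3 in longevity selected lines (7.95%). It gave 2 in knock-down selected (10.4%), 3 in starvation selected (9.21%) and 0 in desiccation selected lines (7.17%). Of the 2 in constant 30 lines 1 was Rpt3R, which was tested only because constant 30 replicates 2 and 3 and 1 cold selected array lay above 4. Rpn13R, counted in knock-down and in starvation selected lines, was tested only through control, heat selected and cold selected arrays above 4. In heat selected lines, the regime with the most calls on the array, the share of members was below that of all probe sets. The mean of the 7 regimes against control gave 0 calls among members and 0% among all tested probe sets, with Usp14 and Rpn2 at an unadjusted p under 0.05 (10.9% of all). The F test gave these 2 members as well at an unadjusted p under 0.05 (15.4% of all).

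**Figure D4:**
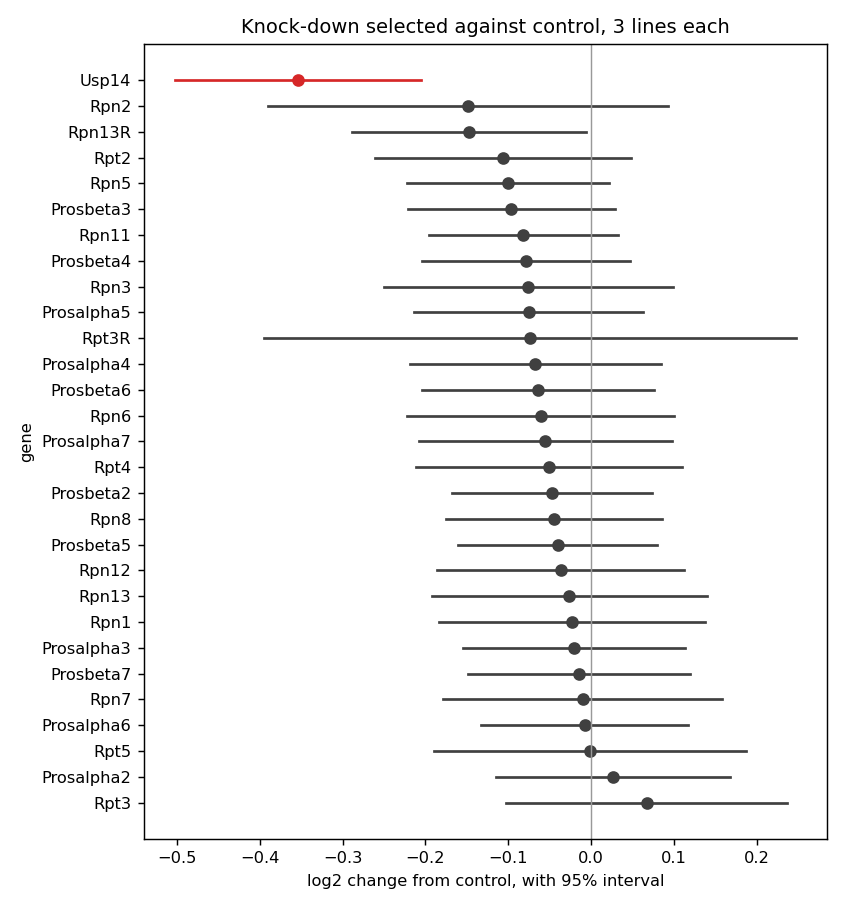
Log2 change with 95% interval of the 29 tested members in knock-down selected against control lines, 3 lines each, ordered by change. Usp14, in red, is the only call, at -0.35, and the interval of Rpn13R ends just below 0, while those of the 26 subunits include 0.

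Direct comparisons between regimes gave 0 calls among the members. Heat selected against constant 30 lines had 0 of 29 (0.366% of all tested probe sets, 0.199% higher and 0.166% lower), against knock-down selected lines 0 (0.0111%) and against cold selected lines 0 (0.0332%). Starvation against desiccation selected and longevity against starvation selected lines also gave 0 (0% of all in each). Limma's unadjusted p was under 0.05 for 1, 1, 1, 2 and 1 members in these 5 comparisons (23.1%, 14.8%, 11%, 2.32% and 2.39% of all). Rpn2 was 0.26 higher in heat selected than in cold selected lines (95% interval 0.021 to 0.50, adjusted p = 0.437 in limma), and the lines of these groups overlapped. Rpn11 was at -0.13 in starvation relative to desiccation selected lines and Prosalpha6 at -0.15 in longevity relative to starvation selected lines, with lines that did not overlap. The other members counted were Rpn2 in starvation against desiccation selected lines (-0.40, described above), Rpn13R in heat selected against knock-down selected lines and Rpt3R in heat selected against constant 30 lines. Rpt3R, the only member counted in that last comparison, was tested only through constant 30 replicates 2 and 3 and cold selected replicate 1, so this count gives no support to a difference. The same holds for the count of Rpn13R, which was tested only through control, heat selected and cold selected arrays.

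The subunits varied less between lines than most transcripts. The median residual SD of the 26 subunit probe sets was 0.0778, from 0.0511 for Rpn11 to 0.147 for Rpn2. It was 0.120 over all tested probe sets and 0.103 over the 2073 that were at least as bright as the dimmest subunit probe set. The span of group means had a median of 0.13 over the subunits, 0.21 over those bright probe sets and 0.23 over all. These values are descriptions, since the brightness of a probe set bears on its spread.

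**Figure D5:**
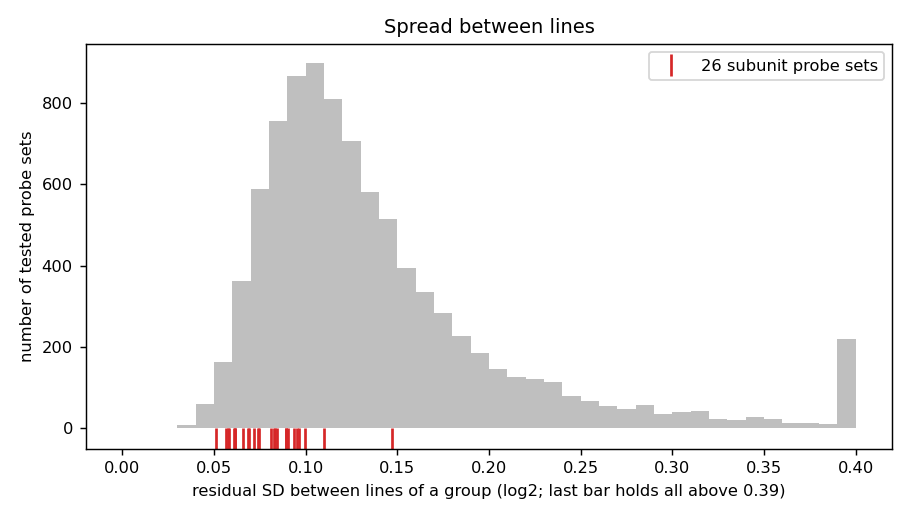
Histogram of the residual SD between lines of a group, on the log2 scale, over the 9023 tested probe sets, with red ticks for the 26 subunit probe sets. The ticks run from 0.051 to 0.15, and their median of 0.0778 lies left of that of all tested probe sets, 0.120.

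Deviations of the subunits from their group means were positively correlated in most pairs. After removal of the group means, the 325 pairs of subunits had a median correlation of 0.30 across the 24 arrays, and 80.3% of the pairs were positive. Pairs of all tested probe sets had a median of 0.017 with 52.1% positive, and pairs of the 2073 bright probe sets a median of 0.030. The median was 0.47 within the beta ring, 0.39 within the alpha ring, 0.27 within the lid and 0.19 within the base. These are correlations of genes over the same arrays, which share their RNA, labelling and normalization, and are given without a test. Constant 30 replicate 3, with a subunit mean of 10.31 beside 10.46 and 10.43 in its group, enters every pair. The correlations were not computed without it.

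Set against the mean of the other subunits in the same way, Prosbeta4 and Prosbeta2 had the highest correlations, 0.82 and 0.81, followed by the ATPase Rpt2 with 0.78. Rpt5, another ATPase, had the lowest of the subunits, -0.20, and Rpn1 and Rpn6 were at 0.062 and 0.073. Rpn2, the subunit with the widest span of group means, was at 0.53. Usp14 was at 0.13, and of the subunits Rpt5, Rpn1 and Rpn6 lay lower.

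The second gene copies, whose names end in T or R with or without a digit, were at the bottom of the signal range in these females. Of 13 such probe sets 11 read under 4 on all 24 arrays: Prosalpha3T, Prosalpha4T1, Prosalpha4T2, Prosalpha6T, Prosbeta2R1, Prosbeta2R2, Prosbeta4R1, Prosbeta4R2, Prosbeta5R1, Rpn12R and Rpt4R. Their highest value on any array was 3.93, for Prosbeta4R1. The exceptions, Rpn13R and Rpt3R, stood just inside the limit for testing, with 5 and 3 arrays above 4.

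Rpn13R was at 4.05, 3.98 and 4.09 in the control lines, 3.98, 4.21 and 4.01 in heat selected, 3.95, 3.95 and 3.93 in constant 30 and 3.92, 3.94 and 4.14 in cold selected lines. Rpn13R in the longevity selected lines was at 3.92, 3.98 and 3.92, in knock-down selected at 3.91, 3.94 and 3.83, in starvation selected at 3.80, 3.93 and 3.95 and in desiccation selected at 3.93, 3.90 and 3.89. Rpn13R, a copy of the ubiquitin receptor, was at -0.15 ± 0.068 in knock-down selected (SE, adjusted p = 0.458 in limma), -0.15 in starvation selected and -0.13 in desiccation selected lines, each wholly below control. In the direct comparison heat selected lines lay above knock-down selected lines by 0.17 ± 0.068 (adjusted p = 0.270). All 24 values lay close to the limit of 4. Rpn13R passed that limit through control, heat selected and cold selected arrays alone, so its high groups had a share in its being tested. The Rpn13R differences therefore give no support to a change.

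Rpt3R was at 3.78, 3.64 and 3.71 in the control lines, 3.61, 3.82 and 3.75 in heat selected, 3.64, 4.56 and 4.01 in constant 30 and 4.17, 3.65 and 3.80 in cold selected lines. Rpt3R in the longevity selected lines was at 3.71, 3.73 and 3.62, in knock-down selected at 3.65, 3.66 and 3.61, in starvation selected at 3.78, 3.90 and 3.64 and in desiccation selected at 3.63, 3.66 and 3.55. Rpt3R, a copy of an ATPase gene, passed the limit through constant 30 replicates 2 and 3 and cold selected replicate 1 alone, so its higher mean there had a share in its being tested. The constant 30 change was 0.36 ± 0.15 (SE, adjusted p = 0.671 in limma), and constant 30 replicate 1 was at the lower edge of the control lines. In heat selected relative to constant 30 lines the Rpt3R difference was -0.34 (adjusted p = 0.194).

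On the other side of the limit stood the second probe set of Prosbeta6, with 2 arrays above 4. Prosbeta6 (second probe set) was at 4.01, 3.80 and 3.73 in the control lines, 3.82, 3.89 and 3.83 in heat selected, 3.95, 3.85 and 3.57 in constant 30 and 3.60, 3.92 and 3.81 in cold selected lines. Prosbeta6 (second probe set) in the longevity selected lines was at 3.88, 3.74 and 3.65, in knock-down selected at 3.53, 3.62 and 4.06, in starvation selected at 3.57, 3.71 and 3.56 and in desiccation selected at 3.54, 3.53 and 3.89. The arrays above 4 were 1 control line and 1 knock-down selected line, and this probe set was not tested.

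Other genes of the ubiquitin system were taken from 7 lists with 81 genes, of which 66 were tested, and 0 were called in any comparison or in the F test (smallest adjusted p = 0.0580 in limma, for Npl4 in heat selected against constant 30 lines). Limma's unadjusted p was under 0.05 for 12 of the 66 genes in heat selected (20.5% of all tested probe sets), 0 in constant 30 (6.98%), 2 in cold selected (7.9%) and 4 in longevity selected lines (7.95%), each against control. It was so for 5 in knock-down selected (10.4%), 3 in starvation selected (9.21%) and 1 in desiccation selected lines (7.17%). Over the 7 regimes the list medians ran from -0.11 to 0.0083 for 7 assembly, activator, inhibitor and bound factors and from -0.073 to 0.016 for 9 genes of ubiquitin and its activation and conjugation. They ran from -0.051 to 0.0053 for 14 genes of cullin ligases and neddylation and from -0.078 to 0.041 for 7 subunits of the COP9 signalosome, a complex built like the lid. For 8 shuttle and segregase factors the range was -0.053 to 0.0084, for 6 genes around cnc 0.010 to 0.094, and for 15 further deubiquitinases -0.13 to -0.018.

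The genes named from these lists are the 2 of each list with the smallest F test p, and their values in heat selected lines follow. Npl4, a partner of the TER94 segregase that draws ubiquitinated proteins out of complexes, was at 9.77, 9.61 and 9.79 in control and 10.16, 10.39 and 9.99 in heat selected lines, so that all heat selected lines lay above control. Its change was 0.45 (adjusted p = 0.0826 in limma, F test adjusted p = 0.167). Pomp, the chaperone that matures the core, was at 8.55, 8.61 and 8.58 in control and 8.23, 8.05 and 8.30 in heat selected lines, all below control, with a change of -0.38 (adjusted p = 0.0606, F test adjusted p = 0.201). The changes in heat selected lines were -0.47 for the ligase scaffold Cul2 (adjusted p = 0.0734), -0.17 for Cul4, -0.32 for casp (adjusted p = 0.0599) and -0.40 for the deubiquitinase faf (adjusted p = 0.0819). They were -0.15 for cnc, 0.13 for Hrd3, 0.077 for CSN1b, -0.065 for CSN4, 0.12 for Usp30, -0.057 for Txl, -0.045 for Ubi-p5E and -0.027 for Ubc7. None of these passed the test.

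Beside the differences in heat selected lines stand other measures of the same arrays. Eggshell genes averaged 10.14, 10.63 and 11.52 in heat selected and 11.78, 11.57 and 11.47 in control lines, germ line genes 9.27, 9.31 and 9.34 and 9.44, 9.46 and 9.40, and muscle genes 9.88, 9.88 and 9.08 and 8.28, 8.51 and 8.99. Signal at the 3' end minus that at the 5' end was 1.62, 1.34 and 1.68 for heat selected and 1.74, 1.69 and 1.82 for control. The yolk proteins averaged 13.78, 13.92 and 14.33 in heat selected and 14.27, 14.31 and 14.18 in control lines. Of 12 eggshell genes 3 were called lower (0.842% of all tested probe sets), and of 11 muscle genes 4 were called higher (1.99%). The part of these measures in the heat selected values of the ubiquitin genes was not tested. Nor was their part in the median change of the 26 subunits, -0.016.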

How the data were processed

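The authors deposited 1 table of log2 values for 14010 probe sets in 24 samples, made with GCRMA per the submitters' processing notes, which give no version or settings. The log2 scale was read from the values (-0.18 to 14.95). Of the 13966 probe sets left without the 44 array controls, 12443 named 1 gene in the platform annotation, 327 several and 1196 none. Symbols of 12394 were updated through RefSeq's gene table (Release 6), used for names and chromosome arms.

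Group means were fitted with lmFit and eBayes of limma 3.58.1 (R 4.3.3) over all 24 arrays, leaving 16 residual degrees of freedom, to which the prior added 3.56. Two-sided p-values were adjusted by Benjamini and Hochberg over the 9023 tested probe sets, per comparison. Data were simulated for knock-down selected against control, with 200 of 9023 probe sets changed per draw and noise drawn independently for each. On them the test recovered 14% of changes of 0.25, 39% of 0.35, 70.8% of 0.5 and 95.2% of 1. Of its calls 4.53% were false. These shares depend on the number of changed probe sets, and the data themselves gave 14 calls in this comparison. The number of arrays, 3 per group, limits the precision. Members, gene lists and tests were chosen with earlier results of these data known. Members with values in every line were those called, the 3 with the smallest p in each comparison with control and in the F test, the highest and lowest of each subcomplex, and those on either side of the limit for testing. Alternatives were other filters (none, or above 6), quantile normalization, median centring, array weights, an intensity trend, a replicate block, an RNA quality covariate, adjustment over the 7 comparisons, fits of the compared arrays alone and leaving out each line.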

Additional observations from a re-analysis of the deposited data

How the results depend on the processing

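In 13 of the 14 tests over the members (7 comparisons with control, their mean, 5 direct comparisons and the F test) 0 members were called under every alternative run. The exception was knock-down selected against control, where 1 member, Usp14, was called. The count was 0 with p-values adjusted over the 7 comparisons, 0 with the RNA quality covariate, 0 in a fit of the compared arrays alone, and 0 to 1 when 1 line was left out (1 without control replicate 3). For Usp14 the change was -0.35 and its adjusted p 0.0800 over the 7 comparisons, -0.33 and 0.0703 with the covariate, and -0.35 and 0.528 in the fit of the compared arrays alone, which has fewer samples. Over leaving out lines the change ran from -0.41 to -0.26. The other 7 settings kept the call. With a replicate block the adjusted p was 0.0358 and no count of members changed. The labels do not say whether lines with the same number are related, and the main fit did not treat the replicate numbers as pairs. Deviations of arrays with the same number correlated at -0.35 to 0.56 (34 of 84 pairs over 0.1). With 3 numbers to match, 15 of 24 arrays correlated best with their own number, where unrelated numbers would give about 1 in 3. Whether lines of the same number share an origin was not tested. The 21 named changes from control kept their direction under every alternative run. The medians of the 26 subunits stayed within -0.097 and -0.0022 in the 7 comparisons with control. That of starvation against desiccation selected lines, -0.0061, ran from -0.048 to 0.0092 over the alternatives. That of longevity against starvation selected lines, -0.0094, ran from -0.050 to 0.017. Signal near 4 limits what can be said of the paralogs.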
